A study of Mus musculus with 9 samples.

Results

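The Krüppel-like factor (KLF) genes examined here are Klf2, Klf3, Klf6, Klf7, Klf10, Klf11, Klf12, Klf13 and Klf16, 9 of the 25160 genes with a row in the deposited table. They were named by symbol, and each gene's row was chosen by its total count over all 9 libraries, the highest where a gene had several transcript rows. That choice affected Klf10 alone, the only one of them with more than 1 row. All 9 were present, and 8 had enough counts to be tested, the exception being Klf12. The 9 were proposed with results of these data in view, so their counts and medians are given as descriptions.

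The series profiled RNA of naive CD4+ T cells sorted from the spleens of C57BL/6 mice and cultured on plates coated with 1 µg/ml of anti-CD3e, an antibody that engages the T cell receptor complex. The plates also carried 19 µg/ml of a second antibody. Wild-type cells met an antibody against CD40L (WT anti-CD40L), cells of mice lacking CD40L in T cells met an isotype control antibody (KO isotype), and wild-type cells met the same isotype control (WT isotype). Each group had 3 libraries. KO libraries carry the genotype label cre, and the sources used here name neither the Cre driver, the deleted exons nor the duration of culture. There was no KO group on the anti-CD40L antibody. CD40L is the ligand through which activated CD4+ T cells engage CD40 on other cells, and the series title ties it to T cell activation and polarization.

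KLF proteins are zinc-finger transcription factors that bind GC-rich and CACCC sequences, and they differ in the cofactors their other domains recruit. KLF2, KLF6 and KLF7 mostly activate transcription, KLF3 and KLF12 recruit the corepressor CtBP, and KLF10, KLF11, KLF13 and KLF16 recruit the SIN3 corepressor with its histone deacetylases. In T cells KLF2 is the best-studied member: it keeps naive cells quiescent, drives the genes for lymph node entry and tissue exit, and is shut off when the antigen receptor is triggered strongly.

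The promoters of the 4 members whose transcript level passed the test below are shown, each as the 250 bases before the annotated start (GRCm38.p6, RefSeq), read 5′ to 3′ in the direction of transcription. Capitals mark GC boxes (GGGCGG) and CACCC boxes, both searched on both strands because KLF proteins bind such letters, and, in Klf2, a match to the binding motif of MEF2 factors. The intervals are chr8:72318812-72319061 on the plus strand for Klf2, chr5:64803271-64803520 on the plus strand for Klf3, chr13:5861239-5861488 on the plus strand for Klf6 and chr7:63938916-63939165 on the minus strand for Klf13.
Klf2: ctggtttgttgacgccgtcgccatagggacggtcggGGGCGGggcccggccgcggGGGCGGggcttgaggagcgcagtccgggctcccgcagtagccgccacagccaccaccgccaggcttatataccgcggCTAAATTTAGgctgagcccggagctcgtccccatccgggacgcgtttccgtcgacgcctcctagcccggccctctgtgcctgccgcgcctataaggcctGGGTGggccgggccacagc
Klf3: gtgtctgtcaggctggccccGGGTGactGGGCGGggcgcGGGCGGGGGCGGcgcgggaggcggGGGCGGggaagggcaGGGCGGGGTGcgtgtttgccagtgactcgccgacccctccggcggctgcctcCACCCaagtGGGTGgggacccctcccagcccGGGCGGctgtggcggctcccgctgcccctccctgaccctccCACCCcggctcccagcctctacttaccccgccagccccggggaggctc
Klf6: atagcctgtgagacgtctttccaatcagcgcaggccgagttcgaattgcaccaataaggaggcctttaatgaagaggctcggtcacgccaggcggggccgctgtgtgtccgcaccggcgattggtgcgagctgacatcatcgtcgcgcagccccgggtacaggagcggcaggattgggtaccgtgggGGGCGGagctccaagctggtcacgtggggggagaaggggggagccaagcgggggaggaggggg
Klf13: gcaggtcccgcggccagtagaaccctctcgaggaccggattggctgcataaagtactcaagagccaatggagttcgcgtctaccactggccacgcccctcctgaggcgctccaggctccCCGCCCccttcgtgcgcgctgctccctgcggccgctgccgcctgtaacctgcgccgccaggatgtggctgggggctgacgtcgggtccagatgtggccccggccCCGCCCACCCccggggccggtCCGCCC

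Among the 7 members found in the promoter table, 6 held a GC box, which 32.9% of all 27025 promoters of that length held. The first start listed was used for each gene. The windows of Klf7 and of Klf12, the member without a GC box, lie inside the annotated gene and not before its outermost start. The 6 windows with a GC box were 59.2% to 78.4% G or C, and that of Klf12 was 48.0%. The promoters they are set against were not matched for this content. A CACCC box was in 5 of the 7, against 51.3% of all promoters. Klf3 had 6 GC boxes and 5 CACCC boxes, of which 1 pair overlapped. Klf13 had 3 and 1, again with 1 overlapping pair, Klf2 had 2 and 1, and Klf6 had 1 and 0. The MEF2 motif of Klf2 was found in 3.01% of all promoters and in none of the other 6 members matched. The FOXO motif GTAAACA, searched on both strands and present in 3.09% of promoters, was in none of the 7 windows. Each match describes letters in a window and is not a measured binding site. Klf10 and Klf16 were not matched in the table.

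Library totals ranged from 5316482 to 15565711 counts over genes. WT anti-CD40L replicate 3 was the smallest library and stood apart from the others, with a count for 11673 genes against 14290 to 17428 elsewhere and a score of 120.4 on the first principal component against -22.17 to 3.335. Fold changes of the KLF members and of the genes called on the related lists in the comparisons of WT anti-CD40L are therefore given with and without it. Markers of CD4 T cells summed to 2920 to 3410 CPM in WT anti-CD40L, 3070 to 3660 in KO isotype and 3230 to 3740 in WT isotype libraries. CPM is the usual count scaled to library size. The targeted gene Cd40lg was at 109.3, 132.2 and 162.8 CPM in WT anti-CD40L, at 145.1, 136.1 and 150.2 CPM in KO isotype and at 141.7, 153.6 and 188.9 CPM in WT isotype libraries. The whole transcript thus did not separate the genotypes, which part of the gene was deleted is not stated, and KO is used below as the labels give it. The labels do not state whether replicate libraries came from separate animals, so a p-value here measures the spread between libraries alone, which may be technical.

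Klf2, Klf3, Klf6 and Klf13 were lower on the anti-CD40L antibody than on isotype antibody in wild-type cells, by 3.09-fold, 2.48-fold, 2.16-fold and 1.64-fold. The same 4 genes were lower in WT anti-CD40L than in KO isotype libraries, a comparison that uses the same WT anti-CD40L libraries and so is not independent. No member passed the test between KO isotype and WT isotype, where 0 of all 11256 tested genes were called. The 4 lower genes were 4 of 8 tested members, and 6.46% of all 11256 tested genes were called lower in this first comparison (edgeR quasi-likelihood F test, Benjamini-Hochberg or BH-adjusted p under 0.05). No member was called higher, against 2.91% of tested genes, and 9.37% of tested genes were called in either direction. The median log2 fold change was -0.64 over the 8 members and -0.013 over all tested genes, and all 8 members had a negative sign. These are bulk samples, in which fewer cells of a type and less RNA per cell cannot be told apart.

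**Figure D1:**
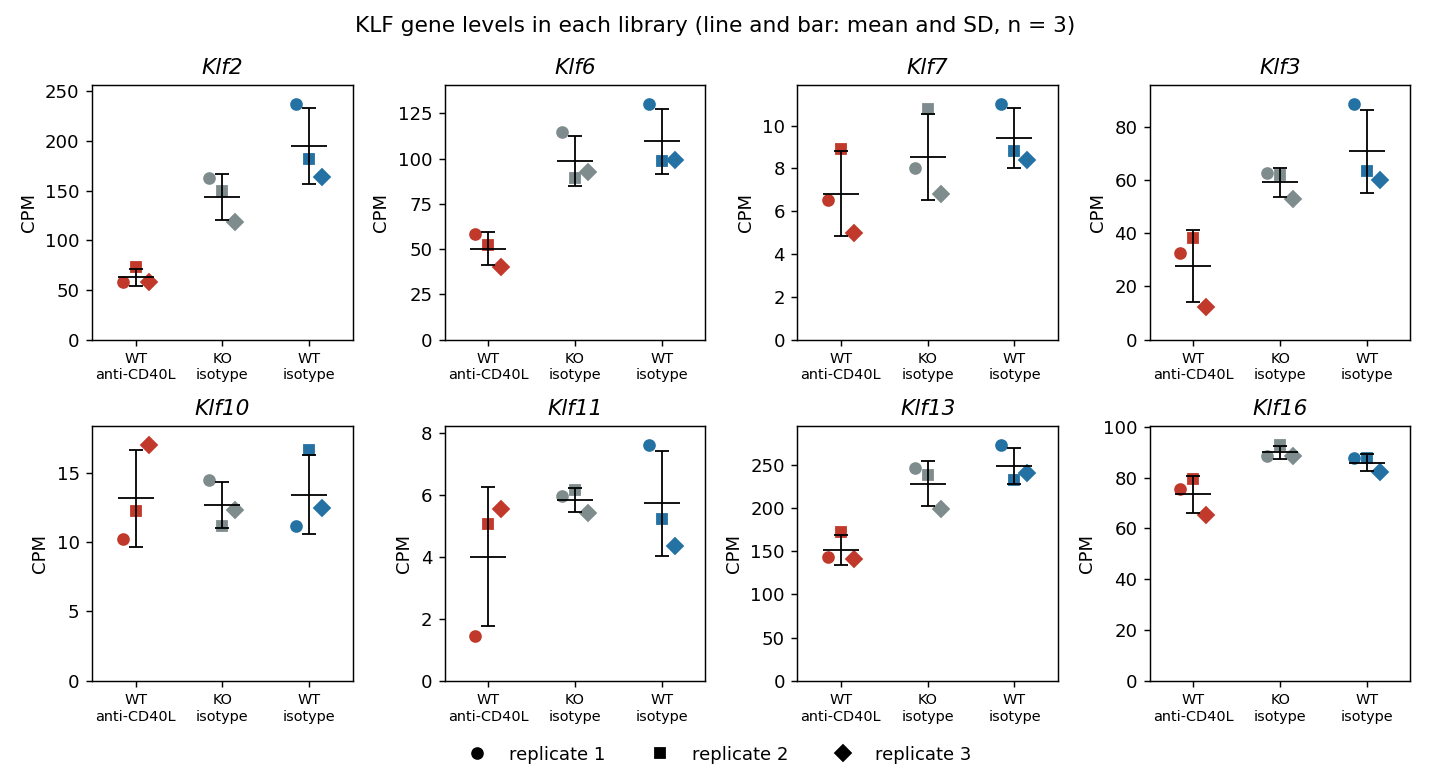
Level of each tested KLF gene in CPM (vertical axes, each starting at 0) in the 3 libraries of WT anti-CD40L, KO isotype and WT isotype, left to right in each panel. Symbols are single libraries, and the line and bar are mean and SD. Klf2, Klf3, Klf6 and Klf13 are lower in every WT anti-CD40L library than in any library of the other groups, while Klf7, Klf10 and Klf11 overlap.

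Klf2 (NM_008452, chromosome 8, 72319062 to 72321654, plus strand, GRCm38) encodes the quiescence and trafficking factor described above. It was at 57.99, 72.62 and 57.52 CPM in the WT anti-CD40L libraries, at 162.8, 149.4 and 117.9 CPM in KO isotype and at 237.4, 181.8 and 164.1 CPM in WT isotype libraries. The 3 groups did not overlap, with WT anti-CD40L lowest and KO isotype between it and WT isotype. Means were 62.7 ± 8.59, 143 ± 23.1 and 194 ± 38.3 CPM in that order of groups (SD, n = 3 each). Klf2 fell in WT anti-CD40L against WT isotype with a log2 fold change of -1.63 (SE 0.155; edgeR quasi-likelihood F test, BH-adjusted p = 6.97e-05), and without WT anti-CD40L replicate 3 the log2 fold change was -1.57 (edgeR BH-adjusted p = 0.00118). It ranked 15th of all tested genes by p. By size it ranked 105th of the 727 genes called lower.

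Klf6 (NM_011803, chromosome 13, 5861489 to 5870393, plus strand) encodes an activator that binds GC boxes and is induced in many tissues by injury and growth signals. It was at 58.52, 52.23 and 40.13 CPM in WT anti-CD40L, at 114.8, 89.08 and 92.64 CPM in KO isotype and at 130.3, 98.81 and 99.45 CPM in WT isotype libraries. All 3 WT anti-CD40L libraries were lower than every other library, and the isotype groups overlapped each other. On anti-CD40L antibody Klf6 fell by 1.11 on the log2 scale against WT isotype (SE 0.152; edgeR quasi-likelihood F test, BH-adjusted p = 0.00061), and the log2 fold change was -0.98 without WT anti-CD40L replicate 3 (edgeR BH-adjusted p = 0.0029).

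Klf3 (NM_008453, chromosome 5, 64803521 to 64832901, plus strand) encodes a repressor that works through CtBP and is itself a target of other KLF proteins in red cell precursors. It was at 32.62, 38.03 and 12.23 CPM in WT anti-CD40L, at 62.53, 61.78 and 52.93 CPM in KO isotype and at 88.61, 63.47 and 60.11 CPM in WT isotype libraries. WT anti-CD40L replicate 3 was far below its group, and replicates 1 and 2 were also below every isotype library. The log2 fold change against WT isotype was -1.31 (SE 0.272; edgeR quasi-likelihood F test, BH-adjusted p = 0.00982), and it was -0.997 without WT anti-CD40L replicate 3 (edgeR BH-adjusted p = 0.00486). The call was lost without WT anti-CD40L replicate 1 (edgeR BH-adjusted p = 0.0694) and without WT isotype replicate 1 (edgeR BH-adjusted p = 0.0518). Klf3 shares up to 404 exon bases with Gm20033 on the opposite strand, and since the use of strand in counting is not given, their reads cannot be told apart there.

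Klf13 (NM_021366, chromosome 7, 63886351 to 63938915, minus strand) encodes a SIN3-class factor known in T cells for the late induction of the chemokine gene Ccl5. It was at 142.9, 171.7 and 140.4 CPM in WT anti-CD40L, at 246.5, 238.5 and 198.1 CPM in KO isotype and at 272.6, 232.7 and 239.9 CPM in WT isotype libraries. The WT anti-CD40L libraries were again the 3 lowest, and the isotype groups overlapped each other. Klf13 fell by 0.71 on the log2 scale against WT isotype (SE 0.108; edgeR quasi-likelihood F test, BH-adjusted p = 0.00133), or by 0.65 without WT anti-CD40L replicate 3 (edgeR BH-adjusted p = 0.00685).

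Klf16 (NM_078477, chromosome 10, 80567121 to 80577296, minus strand), another SIN3-class gene, was at 75.37, 79.51 and 65.16 CPM in WT anti-CD40L, at 88.33, 92.81 and 88.5 CPM in KO isotype and at 87.63, 87.88 and 82.25 CPM in WT isotype libraries. WT anti-CD40L was below both isotype groups without overlap, and KO isotype was above WT isotype without overlap by a narrow gap. The log2 fold change in WT anti-CD40L against WT isotype was -0.22 (95% interval -0.42 to -0.026) and did not pass the test (edgeR quasi-likelihood F test, BH-adjusted p = 0.14). The value without WT anti-CD40L replicate 3 was -0.14 (edgeR BH-adjusted p = 0.284). With Klf16 counted, 5 of 8 members were lower without overlap in this comparison, against 17.2% of all tested genes, and 0 were higher without overlap, against 15.4%.

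The other 3 tested members had few counts and overlapped between groups. Klf7 (NM_033563, chromosome 1, 64029448 to 64122345, minus strand), an activator best known from neurons, was at 6.543, 8.925 and 4.968 CPM in WT anti-CD40L, at 8.02, 10.76 and 6.808 CPM in KO isotype and at 11.02, 8.836 and 8.374 CPM in WT isotype libraries. Its log2 fold change in WT anti-CD40L against WT isotype was -0.44, with a 95% interval of -1.01 to 0.12, and -0.28 without WT anti-CD40L replicate 3. It shares up to 2815 exon bases with Gm26649 on the opposite strand, so its value is uncertain. Klf10 (NM_001357677, chromosome 15, 38291464 to 38300711, minus strand), an early gene induced by TGF-beta, was at 10.22, 12.27 and 17.01 CPM in WT anti-CD40L, at 14.52, 11.2 and 12.34 CPM in KO isotype and at 11.2, 16.63 and 12.5 CPM in WT isotype libraries. Its log2 fold change was -0.056, with a 95% interval of -0.54 to 0.43, and -0.25 without WT anti-CD40L replicate 3, the highest library of that group. Klf11 (NM_178357, chromosome 12, 24651371 to 24662782, plus strand), also induced by TGF-beta, was at 1.434, 5.071 and 5.541 CPM in WT anti-CD40L, at 5.961, 6.149 and 5.408 CPM in KO isotype and at 7.616, 5.226 and 4.359 CPM in WT isotype libraries. Its log2 fold change of -0.58 came with a 95% interval of -1.46 to 0.31, too wide to tell a fall like that of Klf3 or Klf6 from no change. It rested on the low WT anti-CD40L replicate 1: the log2 fold change was -0.13 without that library, against -0.84 without WT anti-CD40L replicate 3. None of these 3 was called (edgeR quasi-likelihood F test, BH-adjusted p = 0.299, 0.903 and 0.397).

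Klf12 (NM_010636, chromosome 14, 99866181 to 100285891, minus strand), the other gene of the CtBP class, had 0 counts in the WT anti-CD40L libraries, 1 count in KO isotype replicate 3 and 3 counts in WT isotype replicate 1. All libraries were at or under 3 counts, the limit that a count of 0 allows, which corresponds to 0.191 to 0.573 CPM depending on the library. No fold change is given for it, and that limit covers counting error only.

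**Figure D2:**
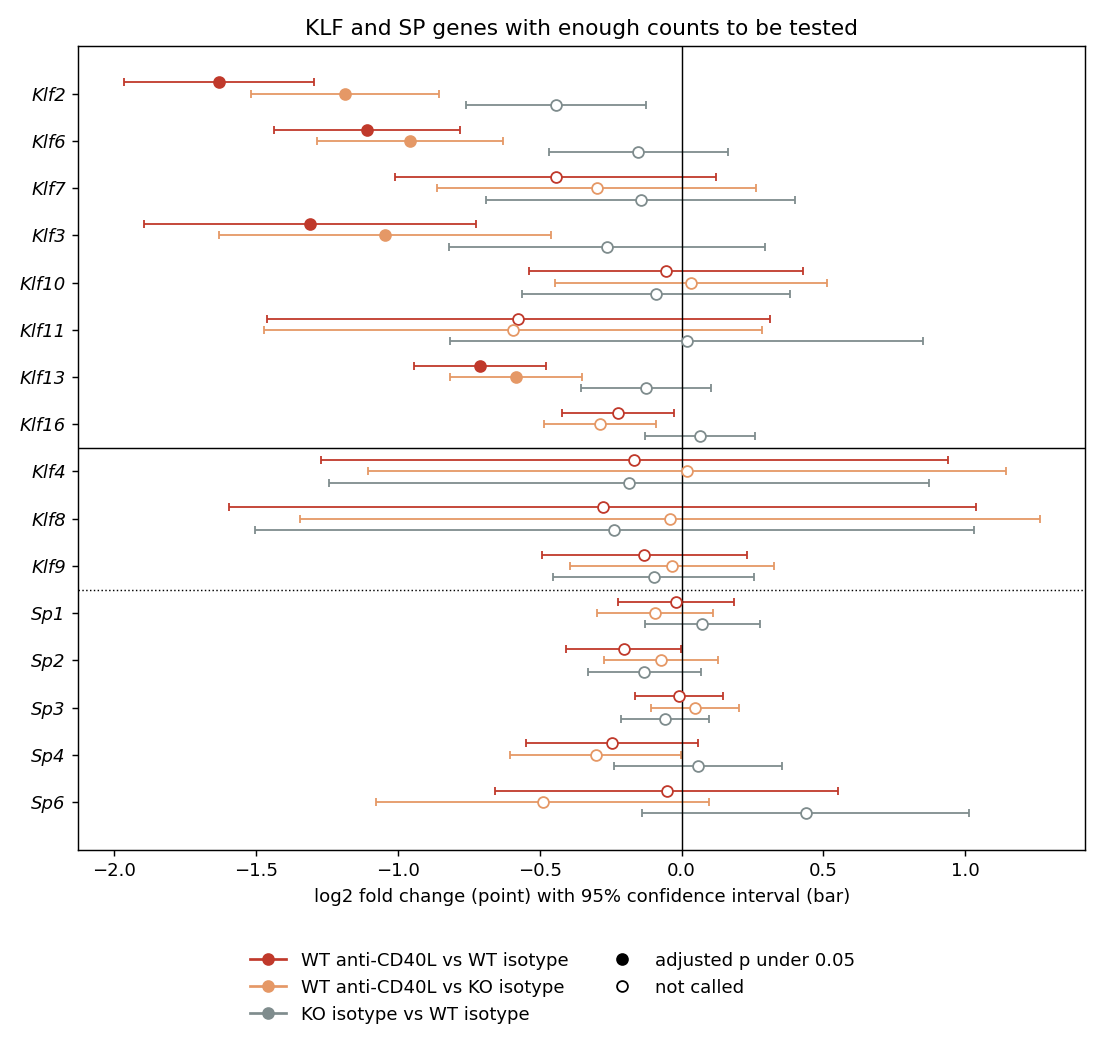
Log2 fold change (horizontal axis) with its 95% confidence interval for the 8 tested members at the top, 3 other KLF genes in the middle and 5 SP genes at the bottom, in the 3 comparisons. Filled points passed an adjusted p of 0.05: these are Klf2, Klf3, Klf6 and Klf13 in both comparisons of WT anti-CD40L, and no gene in KO isotype against WT isotype.

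The comparison of KO isotype with WT isotype asked whether loss of CD40L in T cells, without the CD40L antibody, moved the same genes. Klf2 was lower in KO isotype than in WT isotype without overlap, with a log2 fold change of -0.44 (SE 0.147, 95% interval -0.76 to -0.13), and did not pass the test (edgeR quasi-likelihood F test, BH-adjusted p = 0.703). Its unadjusted p was 0.00999, and it was called in 1 of 17 alternatives, the fit with no filter on low counts (edgeR BH-adjusted p = 0.00528). The log2 fold changes were -0.26 for Klf3, -0.15 for Klf6, -0.13 for Klf13 and 0.065 for Klf16, with 95% intervals of -0.82 to 0.29, -0.47 to 0.16, -0.36 to 0.10 and -0.13 to 0.26. For Klf7, Klf10 and Klf11 they were -0.14, -0.089 and 0.017. No member was called, and 0% of all tested genes were called (edgeR quasi-likelihood test). At an unadjusted p under 0.05 there were 1 member and 649 genes. DESeq2, limma-voom and limma-voom with quality weights also called 0 members. Without overlap, 1 member was lower and 1 higher, against 7.62% and 7.61% of all tested genes. This comparison shares the WT isotype libraries with the first, so the 2 sets of values are not independent.

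The comparison of WT anti-CD40L with KO isotype also tests whether the change on anti-CD40L antibody differed from the change with CD40L loss, since both are set against WT isotype. Klf2 was lower in WT anti-CD40L than in KO isotype by 2.28-fold, a log2 fold change of -1.19 (SE 0.154; edgeR quasi-likelihood F test, BH-adjusted p = 0.00051), or -1.12 without WT anti-CD40L replicate 3 (edgeR BH-adjusted p = 0.00581). Klf6 and Klf13 had log2 fold changes of -0.96 (SE 0.151) and -0.58 (SE 0.108; edgeR quasi-likelihood F test, BH-adjusted p = 0.00195 and 0.0053). Without WT anti-CD40L replicate 3 these were -0.82 and -0.52 (edgeR BH-adjusted p = 0.00787 and 0.0228). Klf3 had a log2 fold change of -1.05 (SE 0.271; edgeR quasi-likelihood F test, BH-adjusted p = 0.0348), a call that held in 8 of 17 alternatives. It was lost by DESeq2 (BH-adjusted p = 0.0603), in a fit of only the compared groups (edgeR BH-adjusted p = 0.0693) and with summed transcript rows (edgeR BH-adjusted p = 0.0703). Without WT anti-CD40L replicate 3 its log2 fold change was -0.73 (edgeR BH-adjusted p = 0.0247). Leaving out single libraries gave an adjusted p as high as 0.131, reached without WT anti-CD40L replicate 1. The call was also lost without KO isotype replicates 1, 2 and 3 (edgeR BH-adjusted p = 0.0933, 0.128 and 0.0575) and without WT isotype replicates 2 and 3 (edgeR BH-adjusted p = 0.0548 and 0.056). Klf16 stood at a log2 fold change of -0.29 and was not called (SE 0.0908; edgeR quasi-likelihood F test, BH-adjusted p = 0.0768), although it passed with DESeq2 (BH-adjusted p = 0.0428) and with quality-weighted limma-voom (BH-adjusted p = 0.042). With WT anti-CD40L replicate 3 left out, the value was -0.21. Klf7, Klf10 and Klf11 were not called, at log2 fold changes of -0.30, 0.033 and -0.59. Without WT anti-CD40L replicate 3 these were -0.14, -0.16 and -0.85, and without WT anti-CD40L replicate 1 that of Klf11 was -0.13. In all, 4 of 8 members were called lower, against 5.04% of tested genes, and 0 higher, against 1.79%, with 6.83% of genes called in either direction. Without overlap, 5 were lower and 0 higher, against 15.9% and 10.3% of tested genes. The median log2 fold change was -0.59 over members and -0.00996 over all tested genes.

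**Figure D3:**
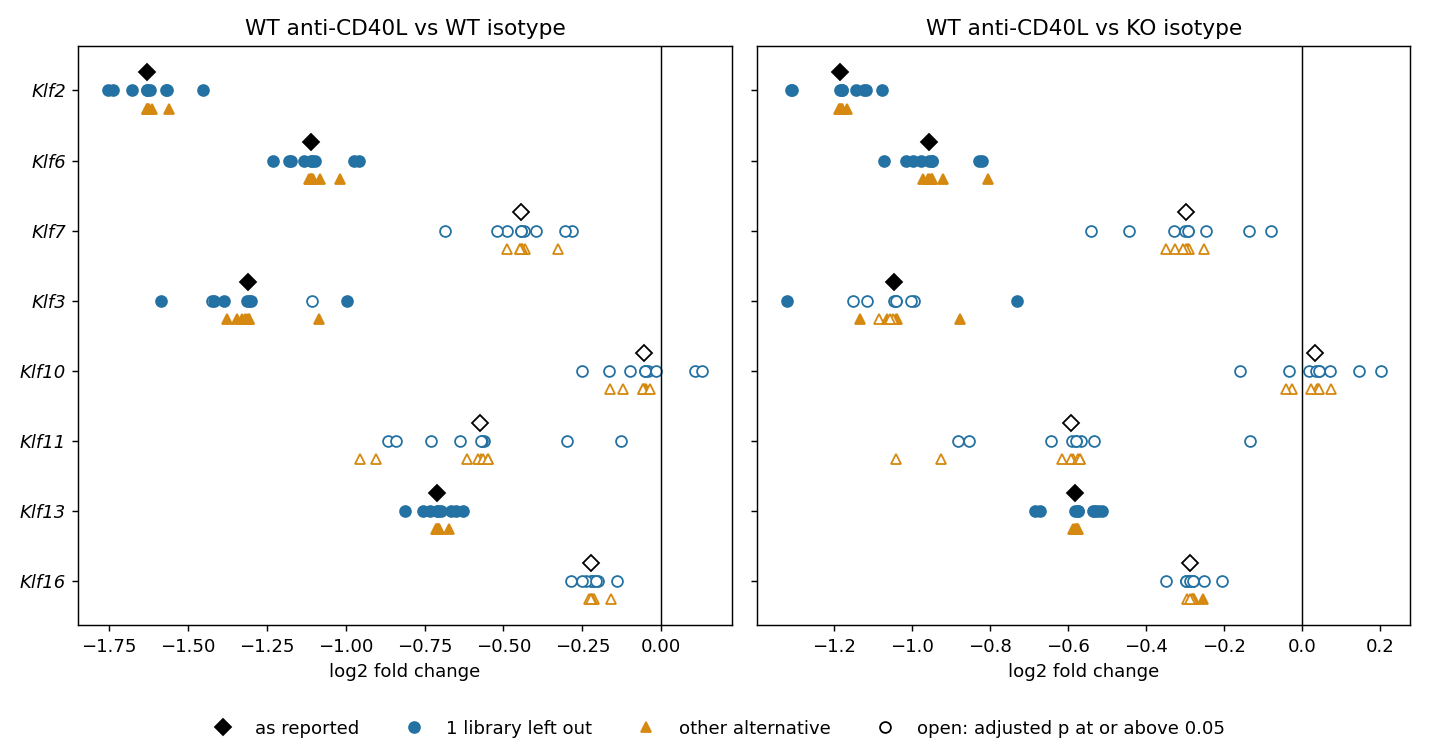
Log2 fold change (horizontal axis) of the 8 tested members in WT anti-CD40L against WT isotype (left) and against KO isotype (right), as reported (diamonds), with 1 library left out (circles) and under the other alternatives (triangles), filled where the adjusted p was under 0.05. Klf2, Klf6 and Klf13 keep filled points in all 17 alternatives of both comparisons, and Klf3 loses some in each.

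Set against transcript length, Klf2 was the most abundant member in every group. It averaged 34.0 CPM per kilobase in WT anti-CD40L (range 31.1 to 39.3), 77.6 in KO isotype (63.8 to 88.1) and 105 in WT isotype (88.8 to 129). Its share of the summed level of the 9 members was 29.5% to 32.2% in WT anti-CD40L, 38.4% to 42.8% in KO isotype and 44.8% to 49.7% in WT isotype libraries. The summed level itself was 108 ± 12.7 CPM per kilobase in WT anti-CD40L, 188 ± 20.3 in KO isotype and 223 ± 31.8 in WT isotype (SD, n = 3 each). These sums follow from values already described and were not tested.

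In both isotype groups the order after Klf2 by mean was Klf13, Klf16, Klf6, Klf3 and Klf10. Klf13 and Klf16 were at 35.6 and 33.6 CPM per kilobase in KO isotype, where their ranges overlapped, and at 38.8 and 32.1 in WT isotype, where they did not. In WT anti-CD40L Klf16 came after Klf2 at 27.4 CPM per kilobase (24.4 to 29.7) and Klf13 next at 23.7 (22.0 to 26.8), with overlapping ranges. Klf6 followed at 11.9, and Klf3 at 5.29 overlapped Klf10 at 4.33. Klf11 and Klf7 overlapped in all 3 groups, at or below 1.43 CPM per kilobase on average. The length of Klf10 was that of another of its transcripts.

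**Figure D4:**
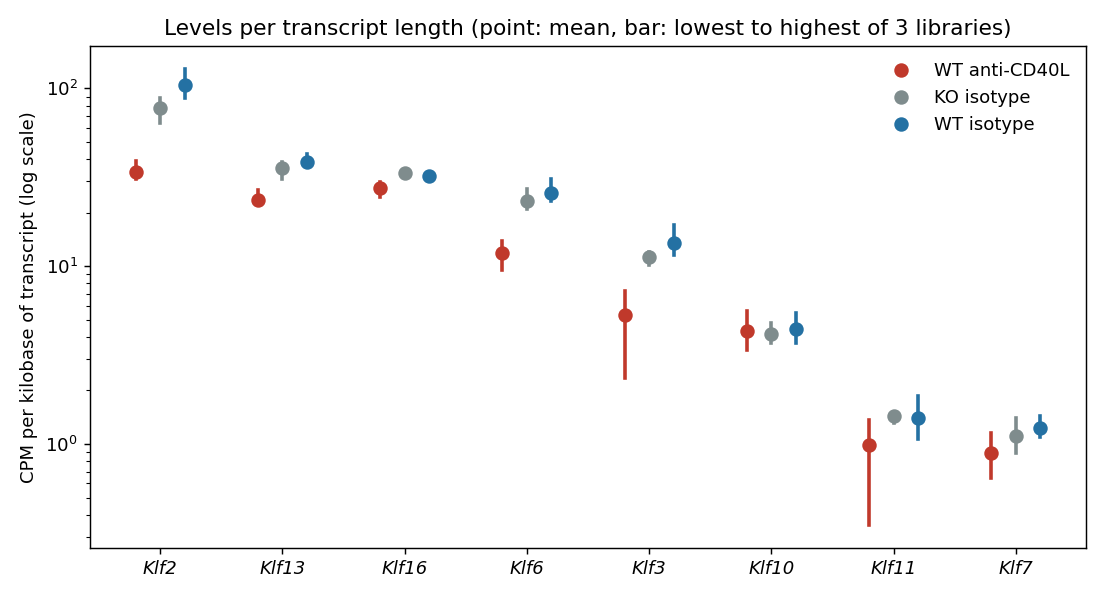
Level per transcript length in CPM per kilobase (vertical axis, log scale) of the 8 tested members in WT anti-CD40L, KO isotype and WT isotype, left to right for each gene. Points are means and bars span the lowest to the highest of 3 libraries. Klf2 is highest in each group, at 34.0, 77.6 and 105, while Klf10 stays near 4 in all groups.

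The other KLF genes and the related SP genes, which bind the same GC-rich letters, gave no call in any comparison by that test with all libraries. Of 8 other KLF genes, Klf4, Klf8 and Klf9 were tested. Klf9, a glucocorticoid-induced repressor, was at 15.8 ± 2.32 CPM in WT anti-CD40L, 15.9 ± 2.14 in KO isotype and 17.1 ± 1.06 in WT isotype (SD, n = 3 each), and WT anti-CD40L and WT isotype overlapped. Klf4, a quiescence factor in CD8 T cells, ranged from 0.7099 to 2.102 CPM and Klf8 from 0.5419 to 3.181 CPM over all libraries, with log2 fold changes in WT anti-CD40L against WT isotype of -0.17 (SE 0.512) and -0.28 (SE 0.61). The values of Klf4, Klf8 and Klf9 in that comparison without WT anti-CD40L replicate 3 were -0.50, 0.0031 and -0.23. Klf1, Klf5, Klf14, Klf15 and Klf17 had 10, 3, 14, 5 and 10 counts over all libraries together. Of 9 SP genes, Sp1, Sp2, Sp3, Sp4 and Sp6 were tested. Sp1, the founding GC-box factor, was at 238 ± 19.6, 255 ± 27.1 and 242 ± 15.4 CPM in WT anti-CD40L, KO isotype and WT isotype, and its relative Sp3 at 185 ± 6.5, 179 ± 7.77 and 186 ± 3.78 CPM. Their log2 fold changes in WT anti-CD40L against WT isotype were -0.021 and -0.011. Sp2 was lower without overlap, at a log2 fold change of -0.20 (edgeR BH-adjusted p = 0.184), and Sp4 and Sp6 had -0.25 and -0.053. Sp6 was higher without overlap in KO isotype against WT isotype, at 0.44 (edgeR BH-adjusted p = 0.902). It was lower without overlap in WT anti-CD40L against KO isotype, at -0.49 (edgeR BH-adjusted p = 0.309). Sp6, Sp2 and Sp3 share up to 3329, 126 and 109 exon bases with genes on the opposite strand, so the value of Sp6 above all is uncertain. Sp4 without WT anti-CD40L replicate 3 had -0.40 against WT isotype, not called, and -0.45 against KO isotype, where it was called lower (edgeR quasi-likelihood F test, BH-adjusted p = 0.0603 and 0.0437). At an unadjusted p under 0.05, 1 SP gene was found in each comparison of WT anti-CD40L and 0 in KO isotype against WT isotype. Of all 11256 tested genes, 2971 met that cut in WT anti-CD40L against WT isotype and 2501 against KO isotype. In KO isotype against WT isotype 649 did. Limma-voom with quality weights called 1 SP gene in each comparison of WT anti-CD40L. Sp5 and Sp7 had 0 counts in every library, and Sp8 and Sp9 had 19 and 6 in all.

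Of the 10 tested genes known to regulate KLF2 or its gene, 3 were lower and 0 higher in WT anti-CD40L against WT isotype. Over all tested genes 6.46% were lower and 2.91% higher. The median log2 fold change of the 10 was -0.11. Smurf1, a ubiquitin ligase that targets KLF2 protein for degradation, was at 40.69, 56.69 and 43.57 CPM in WT anti-CD40L and at 73.92, 76.1 and 71.35 CPM in WT isotype libraries. The fitted difference was -0.65 on the log2 scale (SE 0.126; edgeR quasi-likelihood F test, BH-adjusted p = 0.00668), or -0.59 without WT anti-CD40L replicate 3 (edgeR BH-adjusted p = 0.0186). Mef2d, one of the MEF2 factors through which the kinase ERK5 induces Klf2, had a log2 fold change of -0.35 (SE 0.0785, edgeR BH-adjusted p = 0.0155), lost without WT isotype replicates 1 or 3 or WT anti-CD40L replicate 1 (edgeR BH-adjusted p = 0.0844, 0.0822 and 0.0587), and -0.31 without WT anti-CD40L replicate 3 (edgeR BH-adjusted p = 0.0472). Foxo1, the forkhead factor that drives Klf2 in naive T cells, was at 140.9, 133.9 and 132.8 CPM in WT anti-CD40L and at 196.7, 160.3 and 156.5 CPM in WT isotype libraries, without overlap. Its log2 fold change of -0.33 (SE 0.0931; edgeR quasi-likelihood F test, BH-adjusted p = 0.041) was called in 7 of 17 alternatives, and leaving out any 1 library other than KO isotype replicate 3 ended the call (edgeR BH-adjusted p = 0.054 to 0.19, and 0.0871, at a log2 fold change of -0.31, without WT anti-CD40L replicate 3). Foxo3, Mef2a, Mef2c, Map2k5, Mapk7, Wwp1 and Fbxw7 were not called. In WT anti-CD40L against KO isotype, Mef2d and Smurf1 were lower (log2 fold change -0.47 and -0.56; edgeR quasi-likelihood F test, BH-adjusted p = 0.0026 and 0.0158), and -0.43 and -0.50 without WT anti-CD40L replicate 3. The Smurf1 call was lost without WT anti-CD40L replicate 1, without KO isotype replicates 1 or 2 and in a fit of only the compared groups (edgeR BH-adjusted p = 0.0794, 0.0753, 0.0617 and 0.0565).

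Of 6 genes known as KLF2 targets in T cells, 3 were lower and 1 was higher in WT anti-CD40L against WT isotype. Over all tested genes 6.46% were lower and 2.91% higher. The median log2 fold change of the 6 was -0.43. That median includes Myc, which KLF2 is known to repress, and the list was written with the S1pr1 result known. S1pr1, the receptor for exit from lymphoid organs, was at 32.71, 42.9 and 40.7 CPM in WT anti-CD40L, at 253.8, 200.4 and 188.8 CPM in KO isotype and at 278.6, 205.8 and 231 CPM in WT isotype libraries. The WT anti-CD40L libraries were the 3 lowest and the isotype groups overlapped. The log2 fold change of S1pr1 against WT isotype was -2.63 (SE 0.15; edgeR quasi-likelihood F test, BH-adjusted p = 6.87e-07), and -2.65 without WT anti-CD40L replicate 3. The fall of S1pr1 was larger than that of Klf2, and the difference between the 2 genes was not tested.

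Itgb7, an integrin chain for gut homing, averaged 34.9 ± 5.06 CPM in WT anti-CD40L, 82.6 ± 21.6 in KO isotype and 102 ± 20.2 in WT isotype, and S1pr4, a related receptor, 48.2 ± 4.09, 63.8 ± 8.64 and 93.2 ± 13.8 CPM in the same groups (SD, n = 3 each). Both fell against WT isotype, with log2 fold changes of -1.55 and -0.96 (edgeR quasi-likelihood F test, BH-adjusted p = 0.000338 and 0.000646), or -1.63 and -1.005 without WT anti-CD40L replicate 3. Myc, a growth gene that KLF2 is known to repress, rose by 0.40 (SE 0.0854; edgeR quasi-likelihood F test, BH-adjusted p = 0.0117), a call lost without WT isotype replicates 1 or 2 (edgeR BH-adjusted p = 0.052 and 0.0511). With WT anti-CD40L replicate 3 left out, it was higher by 0.33 (edgeR BH-adjusted p = 0.0347). Ccr7, a lymph node homing receptor, and Cdkn1a, the cell cycle inhibitor p21, each had a log2 fold change of 0.10 and were not called (edgeR BH-adjusted p = 0.617 and 0.652). In WT anti-CD40L against KO isotype, S1pr1 and Itgb7 were lower (log2 fold change -2.47 and -1.25; edgeR quasi-likelihood F test, BH-adjusted p = 1.4e-06 and 0.00164), at -2.49 and -1.32 without WT anti-CD40L replicate 3. Ccr7 had 0.38 there, not called with all libraries and called in 6 of 17 alternatives. In KO isotype against WT isotype edgeR called 0 of the 6. At an unadjusted p under 0.05 there were 3 of the 6 and 649 of all 11256 tested genes. DESeq2 called 2 of the 6, limma-voom 0 and limma-voom with quality weights 0. S1pr4 was lower there without overlap, at a log2 fold change of -0.55 (edgeR BH-adjusted p = 0.366), and Myc was higher without overlap, at 0.34 (edgeR BH-adjusted p = 0.425). S1pr1 was a known result of these data when the list was written.

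**Figure D5:**
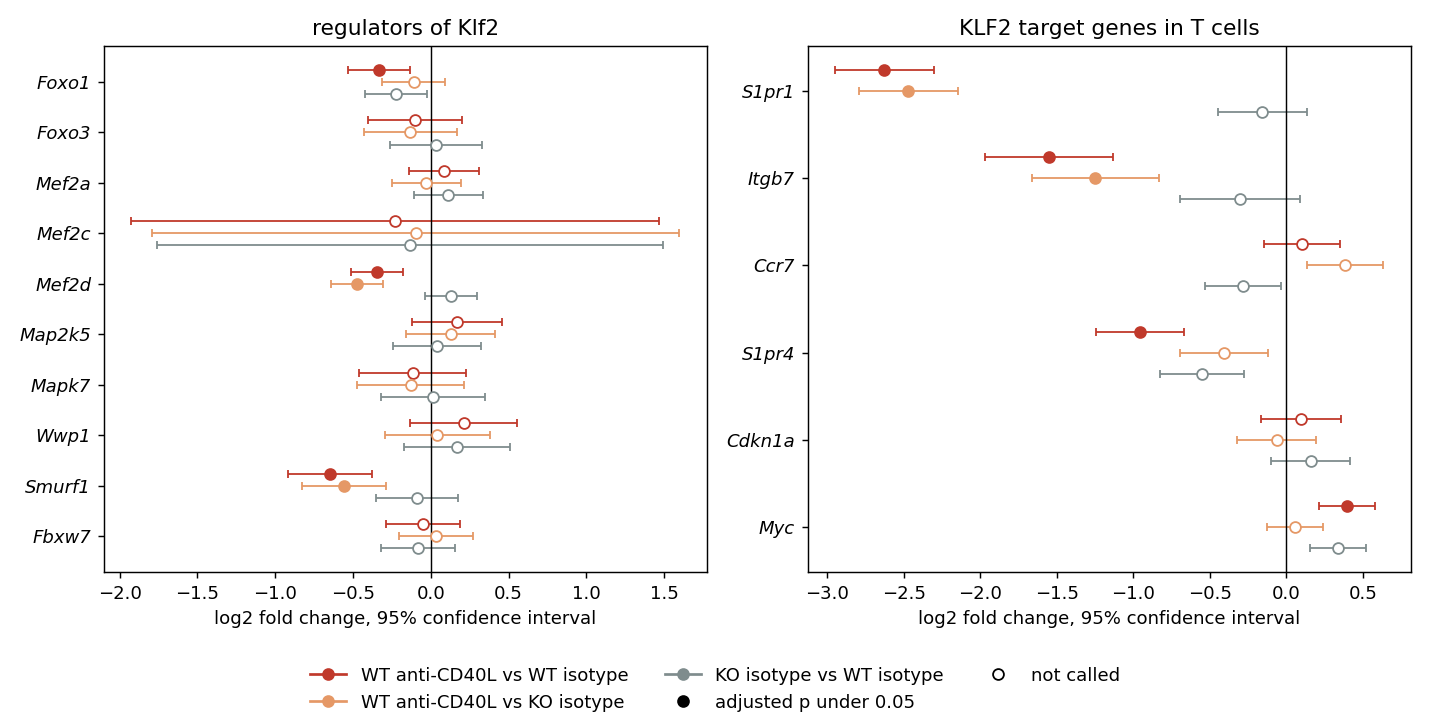
Log2 fold change (horizontal axis) with its 95% confidence interval for 10 regulators of KLF2 (left) and 6 KLF2 target genes (right) in the 3 comparisons, filled where the adjusted p was under 0.05. S1pr1 and Itgb7 are lower in both comparisons of WT anti-CD40L, at -2.63 and -1.55 against WT isotype, and no gene is filled in KO isotype against WT isotype.

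The remaining lists follow the roles of the repressing members. In WT anti-CD40L against WT isotype, 2.91% of all tested genes were called higher and 6.46% lower. Of 9 tested cofactors of KLF proteins, 1 was higher and 0 lower there, with a median log2 fold change of -0.078. The higher one was Hdac2, a histone deacetylase of the SIN3 complex, at a log2 fold change of 0.32 (SE 0.0766; edgeR quasi-likelihood F test, BH-adjusted p = 0.0214), which was called in 13 of 17 alternatives and lost without WT anti-CD40L replicate 1 or any 1 of the WT isotype replicates (edgeR BH-adjusted p = 0.0642 to 0.0735). Without WT anti-CD40L replicate 3 it had 0.30 (edgeR BH-adjusted p = 0.0419), and the acetyltransferase gene Kat2b was called lower, at -0.61 (edgeR BH-adjusted p = 0.0469). The CtBP gene Ctbp1 and the SIN3 genes Sin3a and Sin3b were not called. Of 13 TGF-beta pathway genes, the pathway that induces Klf10 and Klf11, 4 were lower and 0 higher, with a median of -0.038. Smad7, an inhibitor of the TGF-beta receptor that KLF10 is known to repress, was at 33.43, 45.74 and 46.62 CPM in WT anti-CD40L, 75.86, 64.63 and 64.51 CPM in KO isotype and 92.56, 90.07 and 78.35 CPM in WT isotype libraries, with no overlap between any 2 groups. Its log2 fold change was -1.06 against WT isotype (SE 0.132; edgeR quasi-likelihood F test, BH-adjusted p = 0.00034) and -0.71 against KO isotype (edgeR BH-adjusted p = 0.00542), or -1.13 and -0.78 without WT anti-CD40L replicate 3. Ski, an inhibitor of SMAD proteins, and Tgfbr2, a receptor chain, both had -0.49 (edgeR BH-adjusted p = 0.00158 and 0.00442), or -0.46 and -0.55 without that library. Smad3, a signal carrier, had -0.43 (edgeR BH-adjusted p = 0.0317), lost without WT anti-CD40L replicate 1, KO isotype replicate 2 or any 1 of the WT isotype replicates (edgeR BH-adjusted p = 0.0562 to 0.116), or with summed transcript rows (edgeR BH-adjusted p = 0.0558), and -0.46 without WT anti-CD40L replicate 3. Against KO isotype 2 of the 13, Smad7 and Ski, were lower, against 5.04% of all tested genes. There 1, the SMAD inhibitor gene Skil, was higher, against 1.79%. Ski and Skil had log2 fold changes of -0.36 and 0.44 against KO isotype (edgeR BH-adjusted p = 0.0119 and 0.0143). Without WT anti-CD40L replicate 3 these were -0.33 and 0.48. Without KO isotype replicate 2 neither Ski nor Skil was called there (edgeR BH-adjusted p = 0.0761 and 0.0847), nor was Ski without KO isotype replicate 1 or WT anti-CD40L replicate 1 or in a fit of only the compared groups (edgeR BH-adjusted p = 0.0596, 0.069 and 0.0504). Without WT anti-CD40L replicate 3, Tgfbr2 was called lower there as well, at -0.36 (edgeR BH-adjusted p = 0.0415).

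Of 3 tested genes on the KLF13 list, 1 was called in WT anti-CD40L against WT isotype, where 9.37% of all tested genes were called. The called gene was Bcl2l1, which encodes the anti-apoptotic protein BCL-XL and is known to be repressed by KLF13 in mouse thymocytes. It was at 155.8, 139.5 and 202.9 CPM in WT anti-CD40L, at 117.8, 132 and 127.9 CPM in KO isotype and at 95.42, 83.8 and 79.49 CPM in WT isotype libraries, and no 2 groups overlapped. It rose by 0.94 on the log2 scale in WT anti-CD40L against WT isotype (SE 0.126; edgeR quasi-likelihood F test, BH-adjusted p = 0.000537), or by 0.78 without WT anti-CD40L replicate 3 (edgeR BH-adjusted p = 0.001). In KO isotype against WT isotype its log2 fold change was 0.55, not called by edgeR (edgeR BH-adjusted p = 0.366) and called by DESeq2, by limma-voom with quality weights and with no filter on low counts. Ccl5 had too few counts for the test, with 9, 25 and 9 counts in WT anti-CD40L, KO isotype and WT isotype. In KO isotype against WT isotype, edgeR called 0 genes of the cofactor, regulator and TGF-beta lists.

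The genes whose pattern over the 9 libraries was most like that of Klf2 were Rasa3, Adgre5, Pecam1, Nod1 and S100a13. Likeness was the root mean square difference in log2 CPM after centring each gene on its own mean, and these 5 had 0.111, 0.124, 0.146, 0.15 and 0.151. Among members the nearest to Klf2 was Klf6 at 0.267, followed by Klf3 at 0.381 and Klf13 at 0.388. Klf6 was at rank 50 of the tested genes with predicted genes, pseudogenes and unnamed IDs left out. Klf10 was the farthest, at 0.754. All 9 points share the 3 groups, so genes that fell on anti-CD40L antibody by a like amount are near each other by this measure.

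Markers of other cell types were low, and some differed between groups. The 7 B cell markers summed to 4.01 to 12.4 CPM in WT anti-CD40L, 6.51 to 15.7 in KO isotype and 10.7 to 32.2 in WT isotype libraries. Fcer2a alone among them was called lower in WT anti-CD40L than in WT isotype (edgeR quasi-likelihood F test, BH-adjusted p = 0.00176). Cd79b, Cd22 and Ebf1 had log2 fold changes of 0.42, 0.32 and 0.30 there, and Cd79a, Ms4a1 and Pax5 had -0.14, -1.24 and -1.16, none called. Fcer2a was also low in KO isotype: it was at 0 to 1.521 CPM in WT anti-CD40L, 0.2928 to 0.8271 in KO isotype and 5.506 to 16.44 in WT isotype libraries. For Fcer2a the log2 fold change in KO isotype against WT isotype was -4.28 (edgeR BH-adjusted p = 0.109, and 0.037 with WT anti-CD40L replicate 3 left out of the fit), and in WT anti-CD40L against KO isotype it was 0.32. The 8 myeloid markers summed to 2.6 to 6.11, 4.03 to 15.8 and 5.39 to 6.99 CPM in those groups, and Itgam, at 6, 58 and 51 counts in all, was lower in WT anti-CD40L than in both isotype groups (edgeR BH-adjusted p = 0.0437 against KO isotype and 0.0336 against WT isotype, or 0.0637 and 0.0463 without WT anti-CD40L replicate 3). Cd68, the other tested myeloid marker, had log2 fold changes of 0.18 against KO isotype and -0.12 against WT isotype and was not called. The 6 endothelial and stromal markers summed to 28.1 to 38.7, 61.5 to 94.4 and 74.3 to 109 CPM. Nearly all of that was Pecam1, which T cells also express and which fell with a log2 fold change of -1.28 against KO isotype and -1.42 against WT isotype, while the endothelial genes Cdh5 and Kdr were at 0 counts in 6 of 9 libraries each. Col1a1, the other tested gene of that list, had 0.41 against KO isotype and 1.48 against WT isotype and was not called. Without WT anti-CD40L replicate 3 the values of Col1a1 were -0.81 and 0.26. CD8 T cell markers summed to 6.27 to 10.5, 7.61 to 11.9 and 7.32 to 11.1 CPM and natural killer markers to 0 to 4.56, 4.39 to 9.03 and 2.38 to 3.85 CPM. Dendritic cell markers reached at most 2.93 CPM and erythroid markers at most 3.45 CPM in any library. Zbtb46, the only dendritic cell marker tested, was higher without overlap in WT anti-CD40L than in KO isotype and WT isotype. Its log2 fold changes were 0.98 and 1.06, not called. Klf2 in WT isotype libraries stood at 164.1 to 237.4 CPM, and marker sums do not give how much of it came from other cell types. The part of other cell types in the KLF results was not tested.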

How the data were processed

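RNA was sequenced from 9 libraries, 3 in each group, which per the labels' protocols were KAPA mRNA HyperPrep preparations. The table deposited by the authors gives expected counts for 42361 RefSeq transcripts, without normalization, and each value is a multiple of 0.5. The submitters' processing notes name CASAVA 1.8.2, HISAT2 2.1.0 and mm10. The counting tool, its use of strand and its treatment of multiply aligned reads were not given in the sources used here. Hence overlapping genes and paralogs have uncertain values.

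Symbols came from RefSeq (GRCm38.p6) for 42203 transcripts and from GENCODE M21 for 65, and 93 had none. The row of highest total was kept per gene, and its fractional counts were rounded, 0.5 upwards. Of 25160 genes, 11256 passed the edgeR expression filter. The test was the edgeR 4.0.16 quasi-likelihood F test (R 4.3.3) with TMM scaling and robust estimation, using every library in 1 model of the 3 groups, with Benjamini-Hochberg (BH) adjustment over all tested genes at 0.05. Each adjusted p in the text comes from it unless another tool is named. The common biological coefficient of variation was 0.127. CPM are counts over TMM-scaled library sizes, and CPM per kilobase use GENCODE transcript lengths. The test was run on simulated data first. Alternatives were DESeq2 1.42.0, limma-voom (limma 3.58.1) with and without quality weights, RLE scaling, no filter, summed transcript rows, only the compared groups, the replicate block and leaving out each library.

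The members, the gene lists and the tests were chosen with earlier results of these data known. Some genes of these lists are not reported here, and list counts, medians and sums leave them out. All members and all other KLF and SP genes are named whatever their result. Of each further list, up to 3 called genes per direction with the smallest p are named, with any gene a sentence turns on, and the 5 genes most like the member of largest fall.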

Additional observations from a re-analysis of the deposited data

How the results depend on the processing

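Klf2, Klf6 and Klf13 kept their direction and their call in all 17 alternatives of both comparisons of WT anti-CD40L, and Klf3 kept its direction. With 1 library left out, 3 to 4 members were called in WT anti-CD40L against WT isotype, 3 to 4 against KO isotype and 0 in KO isotype against WT isotype. Fitting no filter on low counts called 1 member, Klf2, in the last. Over all genes, WT anti-CD40L against WT isotype gave 1055 calls, with 1625 by DESeq2, 1698 with no filter and 486 to 1342 with 1 library left out. Against KO isotype there were 769 calls, with 1219 by DESeq2, 1464 by limma-voom with quality weights, 1305 with no filter, 481 in a fit of only the compared groups and 346 to 1022 with 1 library left out. KO isotype against WT isotype gave 0 calls, with 39 by DESeq2, 32 by limma-voom with quality weights, 102 with no filter, 3 in a fit of only the compared groups and 0 to 2 with 1 library left out. The cause of these shifts was not tested.

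Among the genes recomputed, signs turned only for values that were not called as reported. Against KO isotype, the log2 fold change of WT anti-CD40L for Klf10 became -0.027 by limma-voom and -0.041 with quality weights, for Klf4 -0.12 and -0.45, and for Klf8 0.0066 and 0.37, and for Cdkn1a 0.072 with quality weights. In KO isotype against WT isotype, Klf7 became 0.022 with quality weights. With 1 library left out, the log2 fold changes of WT anti-CD40L against WT isotype spanned 0 for Klf10 (-0.25 to 0.13), Klf4 (-0.50 to 0.17), Klf8 (-0.97 to 0.0031), Sp1 (-0.085 to 0.040), Sp3 (-0.029 to 0.017) and Sp6 (-0.11 to 0.023). Against KO isotype they did so for Klf10 (-0.16 to 0.20), Klf4 (-0.32 to 0.36), Klf8 (-0.72 to 0.67), Klf9 (-0.14 to 0.076), Cdkn1a (-0.15 to 0.089) and Myc (-0.0083 to 0.14). In KO isotype against WT isotype they did so for Klf7 (-0.36 to 0.0013), Klf10 (-0.21 to 0.095), Klf11 (-0.15 to 0.28), Klf8 (-0.95 to 0.15), Sp1 (-0.017 to 0.12) and Sp4 (-0.013 to 0.10).

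The replicate numbers are shared between groups, and the labels do not say whether they pair the libraries. Deviations of same-numbered libraries correlated between -0.126 and 0.171 over all groups. Between WT anti-CD40L and WT isotype these were 0.171, 0.0847 and 0.0964, against -0.102 to 0.00763 for differently numbered libraries. Same-numbered pairs that included KO isotype ran from -0.126 to 0.0555. Whether libraries were paired is thus not settled. With the replicate block, 4 members were called in each comparison of WT anti-CD40L and 0 in KO isotype against WT isotype, over 954, 664 and 0 genes, and the Klf11 log2 fold change of the last became -0.00037. Low counts limit Klf12, which could not be tested, and Klf4, Klf8, Klf11 and Klf7, with 129, 193, 497 and 804 counts over all libraries.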
